A study of Mus musculus with 28 samples.

Results

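The 9 genes described here encode enzymes that remove superoxide and peroxides: the glutathione peroxidases Gpx1, Gpx3, Gpx4, Gpx7 and Gpx8, the superoxide dismutases Sod1, Sod2 and Sod3, and catalase (Cat). They were chosen by symbol out of 54429 genes in a table of RNA-seq read counts, and were followed over 28 libraries in 8 culture groups. The set was also chosen on a readout, since Gpx3 had the largest rise among these genes in hypoxic osteoblast cultures against hypoxic proliferating cultures. Gpx3 values that involve the hypoxic osteoblast libraries are therefore a description without a test, and so is every value of that contrast or of the osteoblast interaction built from it.

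All libraries came from O9-1, a mouse cranial neural crest cell line that can be led toward several mesenchymal fates. Cells were kept proliferating or were differentiated toward chondrocytes, osteoblasts or smooth muscle, at 21% O2 (normoxic, 4 libraries per group) or 0.5% O2 (hypoxic, 3 libraries per group), with 5% CO2 in both. Proliferating cells were in STO-conditioned DMEM with 15% FCS, 0.1 mM nonessential amino acids, 55 µM beta-mercaptoethanol, 25 ng/ml bFGF and 5 ng/ml LIF. Osteoblast cultures spent 10 days in alpha-MEM with 10% FCS, 10 mM beta-glycerophosphate, 0.1 µM dexamethasone and 100 ng/ml BMP-2. Chondrocyte cultures had 3 days of that medium and then 7 days as micromasses on matrigel, in alpha-MEM with 5% FCS, Insulin-Transferrin-Selenium, 0.1 µM dexamethasone, 10 ng/ml TGF-beta3 and 50 ng/ml BMP-2. Smooth muscle cultures spent 3 days in DMEM with 10% FCS. All media held 1% penicillin/streptomycin. Selenium was a named supplement only of the chondrogenic medium and beta-mercaptoethanol, a thiol, only of the proliferation medium, so effects of these agents and of the cell state cannot be told apart. All groups share 1 cell line and the labels do not name separate cultures, so p-values measure the spread between these libraries, which may be technical.

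Superoxide dismutases turn superoxide into hydrogen peroxide, and glutathione peroxidases and catalase then reduce the peroxide. Sod1 works in the cytosol with copper and zinc, Sod2 in the mitochondrial matrix with manganese, and Sod3 outside the cell. Gpx1 is the cytosolic glutathione peroxidase, Gpx3 is secreted and is known as the plasma enzyme, and Gpx4 reduces lipid peroxides in membranes and protects cells from ferroptosis. Gpx7 and Gpx8 sit in the endoplasmic reticulum, where disulfide bond formation releases peroxide. Catalase is mainly peroxisomal.

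The glutathione peroxidases differ at the codon of the catalytic residue, which decides whether an mRNA depends on selenium. The 30 bases around that codon, 5′ to 3′ on the coding strand (GRCm38, GENCODE M21 transcripts), are shown with the codon in capitals because this triplet separates the selenium enzymes from the endoplasmic reticulum pair:
Gpx1: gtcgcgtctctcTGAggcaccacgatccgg
Gpx3: gtagccagctacTGAggtctgacagaccaa
Gpx4: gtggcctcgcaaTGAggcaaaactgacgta
Gpx7: gtagctagcgaaTGTggcttcacagaccag
Gpx8: gtggctagtgacTGCcgcttcacagacaag
Gpx1, Gpx3 and Gpx4 each had 1 in-frame TGA, normally a stop, which is read as selenocysteine at codons 47, 73 and 73. Gpx7 has TGT at codon 56 and Gpx8 has TGC at codon 79, both for cysteine. The other 6 genes had 0 in-frame stops in their coding sequences. These codons lie in coding exons, at chr9:108339451-108339453 (Gpx1), chr11:54907256-54907258 (Gpx3), chr10:80054737-80054739 (Gpx4), chr4:108403430-108403432 (Gpx7, minus strand) and chr13:113045661-113045663 (Gpx8, minus strand). The remaining genes span chr16:90220754-90226329 (Sod1, plus strand), chr17:13006846-13040063 (Sod2, plus strand), chr5:52363791-52371418 (Sod3, plus strand) and chr2:103453849-103485160 (Cat, minus strand).

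Libraries held 19869271 to 64693346 counts on genes. The 3 hypoxic smooth muscle libraries stood apart. Mitochondrial ribosomal RNA made up 11.6 to 13.3% of their counts against 0.0252 to 0.0889% elsewhere, and their 10 most abundant genes 27.1 to 28.5% against 5.06 to 16.5%. Their TMM scaling factors, which correct for library composition, were 0.505 to 0.533 against 0.901 to 1.289. Their summed level of 6 smooth muscle markers was 28.5 to 42.4 CPM, a count scaled by the effective size of its library, against 3323 to 3757 in the normoxic smooth muscle libraries and 36.3 to 53.1 in proliferating ones, so they did not carry the marker profile of their label, by which they are called here. The normoxic osteoblast libraries held little of the osteoblast marker Ibsp (0.384 to 3.20 CPM, against 63.3 to 75.7 in hypoxic osteoblast and 734 to 1913 in normoxic chondrocyte libraries). Normoxic osteoblast replicate 4 stood apart with 45.4 CPM of Sp7, where the median of its group was 1.25. All hypoxia response genes that passed the count filter in both groups, 9 or 10 in each of the 4 culture states, rose at 0.5% O2, so the oxygen labels and the RNA went together.

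Gpx7 and Sod3 were scarce in these libraries, and the other members were read at depth in most groups. Over all libraries the counts came to 128351 for Gpx1, 200380 for Gpx3, 155473 for Gpx4, 106161 for Gpx8, 141372 for Sod1, 40759 for Sod2 and 62031 for Cat, but 1454 for Sod3 and 20 for Gpx7. Gpx7 had 8 counts in normoxic chondrocyte, 5 in hypoxic chondrocyte, 6 in normoxic smooth muscle and 1 in hypoxic osteoblast libraries. In the other 4 groups it had 0 counts, which allows up to 0.0177 CPM in normoxic proliferating, 0.0342 in hypoxic proliferating, 0.0262 in normoxic osteoblast and 0.0878 in hypoxic smooth muscle cultures, by counting error alone. Gpx7 passed the filter on low counts in no comparison and was never tested. Gpx2, Gpx5 and Gpx6, the remaining glutathione peroxidases, had 0 counts in all 28 libraries. Levels below are TMM-scaled CPM over all 28 libraries unless stated, given as mean ± SD with n = 4 for normoxic and n = 3 for hypoxic groups.

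**Figure D1:**
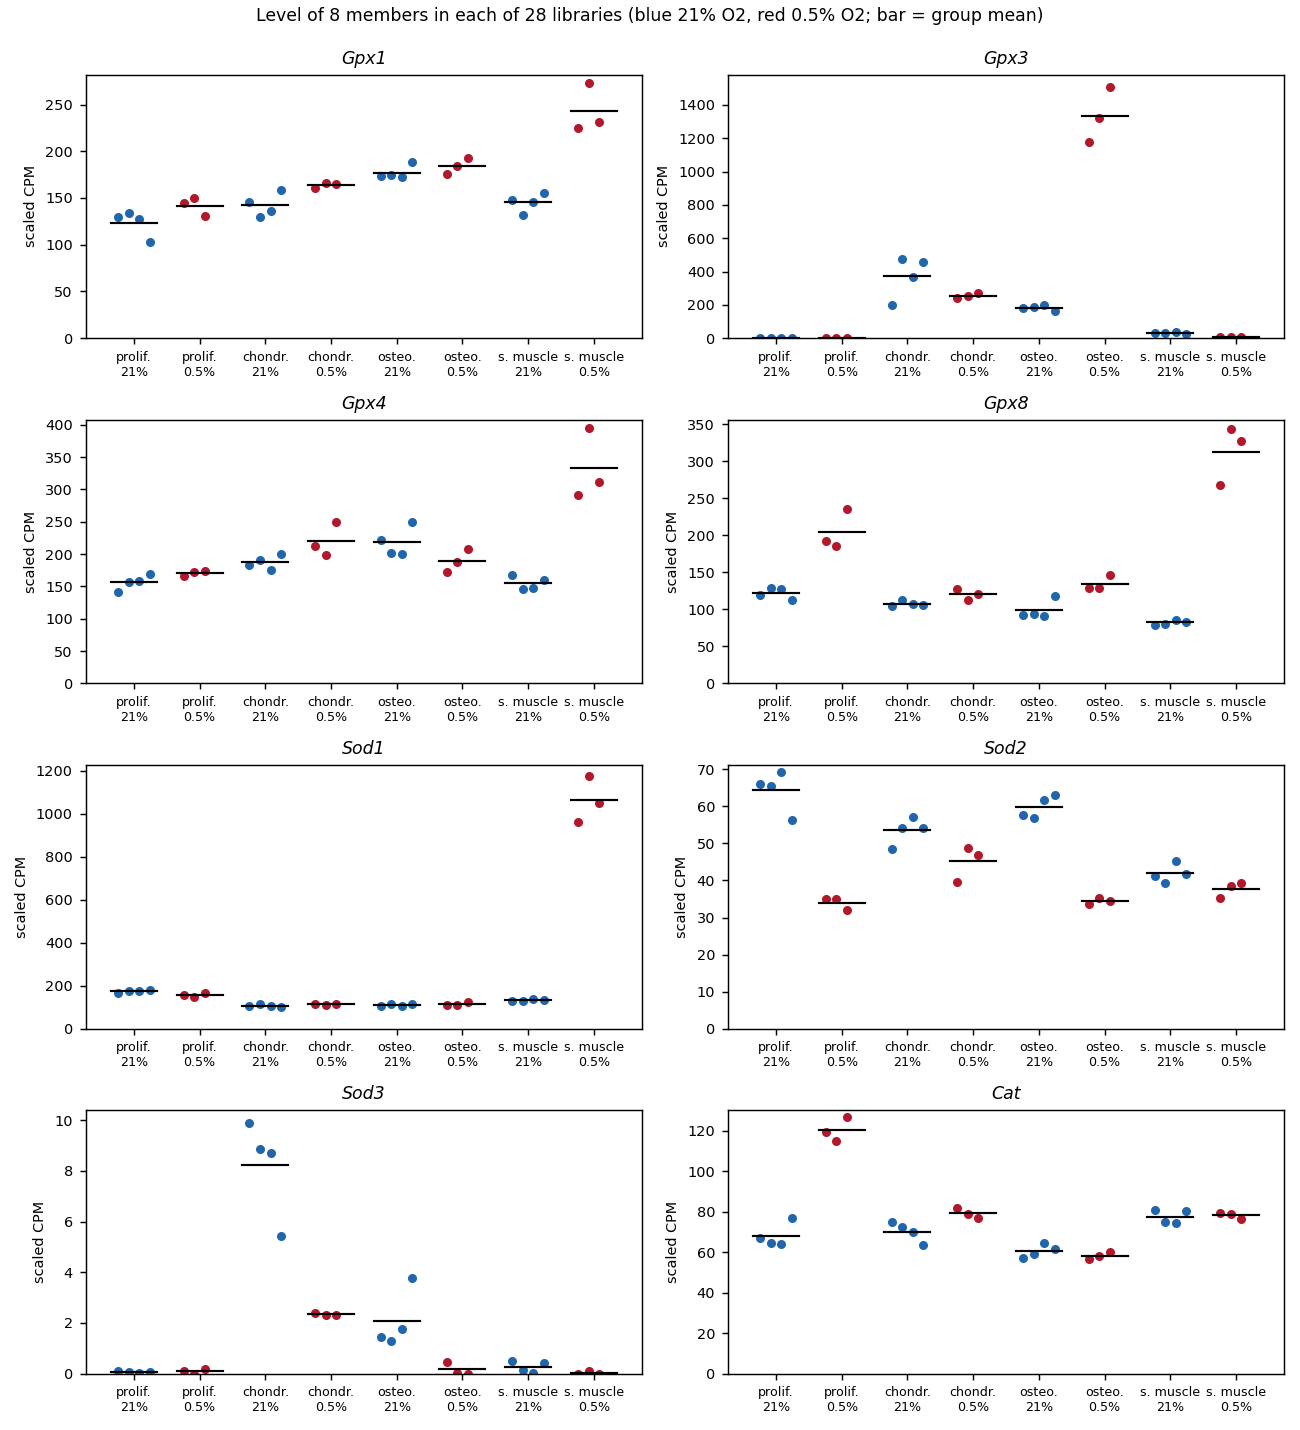
Scaled CPM (linear axis from 0) of 8 members in each library by culture group; each point is 1 library and each bar the group mean, blue at 21% O2 and red at 0.5% O2. Gpx3 stands highest in hypoxic osteoblast libraries (1179 to 1507 CPM) and near 0 in proliferating ones, and Sod1 stands highest in hypoxic smooth muscle libraries (963 to 1174 CPM).

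Gpx3, the secreted enzyme, had by far the widest range of levels among the members. Proliferating cells hardly held it: the 4 normoxic libraries read 0, 0.216, 0 and 0.035 CPM, and the 3 hypoxic ones 0.520, 0.251 and 0.274 CPM. Pooled, that was 17 counts at 21% O2 (0.1 CPM, 95% Poisson interval 0.0583 to 0.160) and 31 counts at 0.5% O2 (0.353 CPM, interval 0.240 to 0.501). Replicate 2, the deepest library, gave all but 1 of the 17 normoxic counts, and without it the level was 0.0104 CPM. The proliferating groups did not overlap per library, but the gene did not pass the count filter there and was not tested.

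Every differentiated group held more Gpx3 than the proliferating groups. The 3 hypoxic osteoblast libraries read 1179, 1319 and 1507 CPM, the highest of all. Normoxic osteoblast libraries read 181, 186, 202 and 164 CPM. The hypoxic osteoblast libraries thus lay 7.28-fold above the normoxic ones in the fit (log2 difference 2.86, SE 0.12), a description with no test, and 2.81 without normoxic osteoblast replicate 4. In these bulk libraries fewer cells of a type and less RNA per cell cannot be told apart. Normoxic chondrocyte libraries read 201, 475, 368 and 458 CPM, and hypoxic ones 239.7, 252 and 269.7. The ranges of the chondrocyte groups overlapped. Normoxic smooth muscle libraries read 30.9, 28.7, 35.0 and 25.9 CPM, and hypoxic ones 7.28, 5.79 and 7.23. The order of levels ran from hypoxic osteoblast through normoxic chondrocyte, hypoxic chondrocyte, normoxic osteoblast, normoxic smooth muscle, hypoxic smooth muscle and hypoxic proliferating to normoxic proliferating cultures. Among neighbours in that order only the chondrocyte groups overlapped. Normoxic chondrocyte libraries (201.3 to 475.1 CPM) also overlapped normoxic osteoblast ones (164.1 to 202.3 CPM), which were not neighbours.

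Adipocyte markers were higher in the hypoxic osteoblast libraries beside Gpx3. The summed level of 8 markers was 54.9 to 59.7 CPM there against 9.23 to 12.3 CPM in normoxic osteoblast libraries, and 49.8 to 62.6 CPM in normoxic smooth muscle libraries. Pparg, the adipogenic nuclear receptor, was 36.1 ± 1.24 CPM (SD, n = 3) against 5.40 ± 0.74 (SD, n = 4), and Fabp4, a fatty acid binding protein, 21.0 ± 1.78 against 3.74 ± 1.61. Both rose by edgeR's quasi-likelihood test (adjusted p = 4.2e-07 and 9.0e-05). Of the defining markers, Adipoq, Lep and Cidec were at 0 in all 3 hypoxic osteoblast libraries, Plin1 reached 0.137 CPM at most, and Lpl was 0.0997 ± 0.097 CPM against 1.63 ± 0.74 in normoxic osteoblast libraries, through which alone it passed the count filter. Proliferation markers were higher there too: Mki67 was 82.2 ± 14.3 against 9.31 ± 2.87 CPM (log2 change 3.14, adjusted p = 9.6e-06) and Top2a 88.3 ± 12.4 against 19.3 ± 5.89 (2.19, adjusted p = 5.2e-05). The summed level of the 5 neural crest and proliferation markers was 380 to 454 against 221 to 254 CPM, with Sox10 at 0 in the hypoxic libraries. The 7 macrophage and blood markers summed to 1.94 to 3.40 against 1.06 to 2.24 CPM, and among them Cd68, a lysosomal protein, was 1.58 ± 0.43 against 0.259 ± 0.067 CPM, past the count filter through the hypoxic libraries only. Smooth muscle markers were lower in the hypoxic osteoblast libraries: the summed level of 6 was 1717 to 2006 against 3069 to 4686 CPM, without overlap. Of 5 tested, 4 fell, namely Acta2 (log2 change -0.93, adjusted p = 0.00084), Tagln (-1.10, adjusted p = 0.013), Cnn1 (-1.22, adjusted p = 0.016) and Myocd (-1.26, adjusted p = 0.0027), and Myh11 was -0.76 (adjusted p = 0.11). The part of these markers in the Gpx3 level was not tested. The osteoblast marker Ibsp also rose (log2 change 5.89, adjusted p = 0.00027). So did Runx2 (1.14, adjusted p = 2.1e-05) and Col1a1 (0.57, adjusted p = 0.034). The value of Phex was 1.58, and Bglap was not tested. Sp7 (96.2 to 96.9 against 0.670 to 45.4 CPM, adjusted p = 0.13) and Alpl (68.2 to 83.1 against 1.39 to 40.0 CPM, adjusted p = 0.12) did not overlap between the groups but missed the threshold. Their part was not tested either.

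Outside the osteoblast cultures the oxygen comparisons of Gpx3 were tested. It fell to 0.236 of its normoxic level in smooth muscle cultures at 0.5% O2 (log2 change -2.09, SE 0.15, adjusted p = 9.9e-09), with no overlap between groups. The size of this fall is relative to the TMM scaling, and Gpx3 was called lower with scaling by library size alone too. The hypoxic libraries are those that lacked the smooth muscle marker profile. In chondrocyte cultures the log2 change of -0.57 (SE 0.29) did not pass the test (adjusted p = 0.22). Without normoxic chondrocyte replicate 1, whose 201 CPM was the lowest of its group, that change was -0.78 and passed (adjusted p = 0.00035).

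Against proliferating cells Gpx3 passed the count filter only through the differentiated libraries, where it was high, so it had to differ and these values carry no test. The fitted log2 differences at 21% O2 were 11.93 in chondrocyte, 10.89 in osteoblast and 8.28 in smooth muscle cultures. These sizes rest on 1 library of the denominator: without normoxic proliferating replicate 2 they were 14.70, 13.65 and 11.08. At 0.5% O2 the differences were 9.47 (SE 0.14) in chondrocyte, 4.37 (SE 0.39) in smooth muscle and 11.87 (SE 0.17) in osteoblast cultures, the contrast used to choose the set, and all 3 share the hypoxic proliferating libraries. Between the skeletal fates at 21% O2, Gpx3 was higher in chondrocyte than in osteoblast cultures (log2 difference 1.01, SE 0.23, adjusted p = 0.0049), though the ranges overlapped. At 0.5% O2 the fitted log2 difference was -2.39 (SE 0.11), without a test.

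Gpx1 and Gpx4, the selenium enzymes found in most cells, varied far less, by 1.97-fold and 2.14-fold between their highest and lowest groups. Gpx1 ran from 123 ± 14.3 CPM in normoxic proliferating cells to 184 ± 8.42 in hypoxic osteoblast and 243 ± 26.7 in hypoxic smooth muscle cultures. Gpx4 was 157 ± 11.6 CPM in normoxic proliferating, 155 ± 9.85 in normoxic smooth muscle and 332 ± 55.3 in hypoxic smooth muscle cultures. Reads of Gpx4 may be split with Gpx4-ps2, a transcribed pseudogene on the same chromosome that took 26271 counts over all libraries, so its level is uncertain to that extent.

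At 0.5% O2 both genes rose slightly in proliferating cells, Gpx1 by 0.26 (SE 0.08, adjusted p = 0.013) and Gpx4 by 0.18 (SE 0.06, adjusted p = 0.018) on the log2 scale. The Gpx1 libraries, 129.7, 134.2, 127.1 and 102.4 CPM at 21% O2 and 144.2, 150.5 and 130.8 at 0.5%, overlapped. Neither call held with scaling by library size alone (adjusted p = 0.060 and 0.15), when all 28 libraries shared a fit (adjusted p = 0.055 and 0.33) or without hypoxic proliferating replicate 2 (adjusted p = 0.071 and 0.065), and that of Gpx4 also ended without normoxic proliferating replicate 1 or hypoxic proliferating replicate 3 (adjusted p = 0.059 each). In chondrocyte cultures neither passed (Gpx1 0.20, adjusted p = 0.083; Gpx4 0.23, adjusted p = 0.074), though Gpx1 (0.25, adjusted p = 0.019) and Gpx4 (0.26, adjusted p = 0.0495) did without normoxic chondrocyte replicate 4, and Gpx4 also without hypoxic chondrocyte replicate 2 (0.30, adjusted p = 0.045). In osteoblast cultures the values were 0.06 for Gpx1 (adjusted p = 0.58) and -0.20 for Gpx4 (adjusted p = 0.14). With scaling by library size alone Gpx4 was called lower there and Gpx1 was not called.

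In smooth muscle cultures Gpx1 and Gpx4 rose by 0.81 and 1.16 on the log2 scale (adjusted p = 9.0e-07 and 5.4e-08), but with scaling by library size alone both signs flipped, to -0.57 and -0.21. That scaling moved the median of all genes in this comparison from -0.12 to -1.49, so every change in hypoxic smooth muscle cultures is relative to the TMM scaling. Under it Gpx4 read 291, 395 and 311 CPM in the hypoxic libraries and 167, 146, 148 and 159 in the normoxic ones, without overlap. Against normoxic proliferating cells Gpx1 rose in normoxic osteoblast (log2 change 0.58), chondrocyte (0.28) and smooth muscle cultures (0.29), and Gpx4 in osteoblast (0.53) and chondrocyte cultures (0.33). The chondrocyte values flipped to -0.06 and -0.02 with scaling by library size alone.

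**Figure D2:**
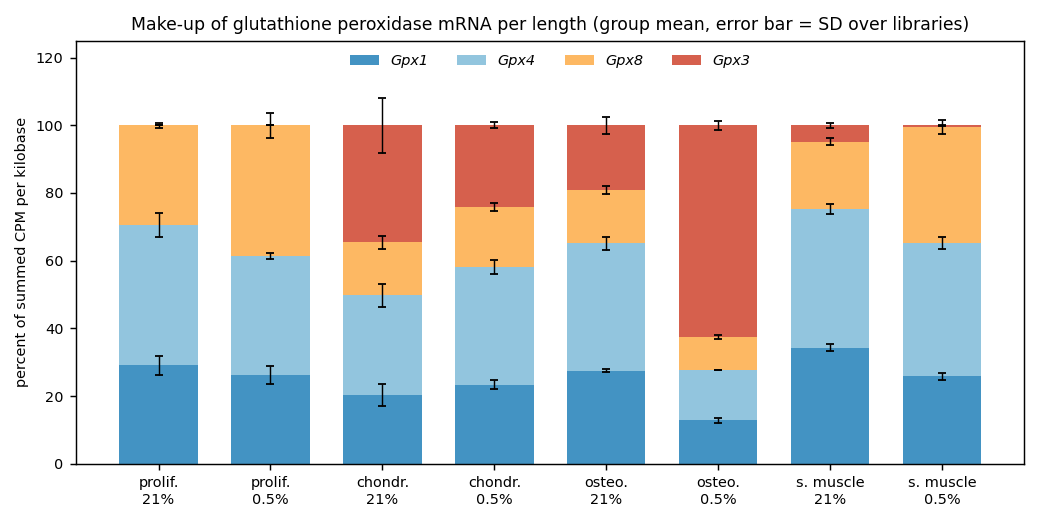
Mean share of each gene in the summed CPM per kilobase of the glutathione peroxidases, in percent, by culture group; error bars are the SD over 4 normoxic or 3 hypoxic libraries. Gpx3 makes up 62.6% in hypoxic osteoblast cultures and under 0.05% in proliferating ones, where Gpx4, Gpx1 and Gpx8 share the total.

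Levels of different genes were compared per length, as CPM per kilobase of the principal transcript. The exon union of Gpx4 has 1724 bases against 959 for that transcript, and that of Gpx8 1048 against 1042. The order of Gpx4 and Gpx8 in proliferating cells at 21% O2 therefore depends on the length used. In proliferating cells at 21% O2 Gpx4 held 41.4% of the glutathione peroxidase total, Gpx8 29.5% and Gpx1 29.1%, and Gpx3 0.00965%. Gpx3 held 62.6 ± 1.24% in hypoxic osteoblast cultures, where Gpx4 held 14.8% and Gpx8 9.70%. The Gpx3 share was 34.6 ± 8.14% in normoxic chondrocyte, 24.2 ± 0.90% in hypoxic chondrocyte and 19.2 ± 2.51% in normoxic osteoblast cultures. It was 4.79% in normoxic and 0.493% in hypoxic smooth muscle cultures. Within a library, Gpx3 per Gpx1 was 0.699 in normoxic and 4.87 in hypoxic osteoblast cultures.

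Gpx8, the endoplasmic reticulum enzyme that uses cysteine, was higher at 0.5% O2 in proliferating, osteoblast and smooth muscle cultures. Proliferating libraries read 119, 129, 127 and 112 CPM at 21% O2 and 193, 186 and 235 at 0.5% O2, without overlap (log2 change 0.80, SE 0.07, adjusted p = 6.9e-07). Osteoblast libraries read 92.7, 93.0, 91.3 and 118 against 129, 128 and 147 CPM (0.45, SE 0.11, adjusted p = 0.0086). They did not overlap either, although normoxic replicate 4 lay apart, and without it the change was 0.54 (adjusted p = 1.2e-05). With scaling by library size alone the osteoblast change of 0.29 missed the threshold (adjusted p = 0.062). Smooth muscle libraries read 79.4, 80.5, 86.1 and 83.2 against 269, 343 and 327 CPM, a rise of 1.99 on the log2 scale (SE 0.09, adjusted p = 3.2e-11) that was 0.61 with scaling by library size alone. In chondrocyte cultures the change of 0.16 (SE 0.06) did not pass (adjusted p = 0.098).

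Against proliferating cells Gpx8 was lower in several differentiated groups. At 21% O2 it fell in osteoblast (log2 change -0.25, adjusted p = 0.036) and smooth muscle cultures (-0.51, adjusted p = 3.3e-07) against proliferating cells. The osteoblast call ended when any of 6 libraries was left out: normoxic proliferating replicate 1, 2 or 3 or normoxic osteoblast replicate 1, 2 or 3, with adjusted p from 0.052 to 0.093. At 0.5% O2 it fell in chondrocyte cultures by 0.77 on the log2 scale (adjusted p = 4.0e-06), and the value in osteoblast cultures was -0.61. Hypoxic smooth muscle cultures went the other way (0.73, adjusted p = 0.00011), except with scaling by library size alone, where the value was -0.55. Within libraries and per length, Gpx8 per Gpx4 was 0.719 ± 0.075 in normoxic and 1.10 ± 0.13 in hypoxic proliferating cells. It was 0.417 ± 0.022 and 0.656 ± 0.031 in the osteoblast pair and 0.490 ± 0.042 and 0.872 ± 0.087 in the smooth muscle pair, none of which overlapped. The chondrocyte pair overlapped at 0.529 ± 0.032 and 0.506 ± 0.053.

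**Figure D3:**
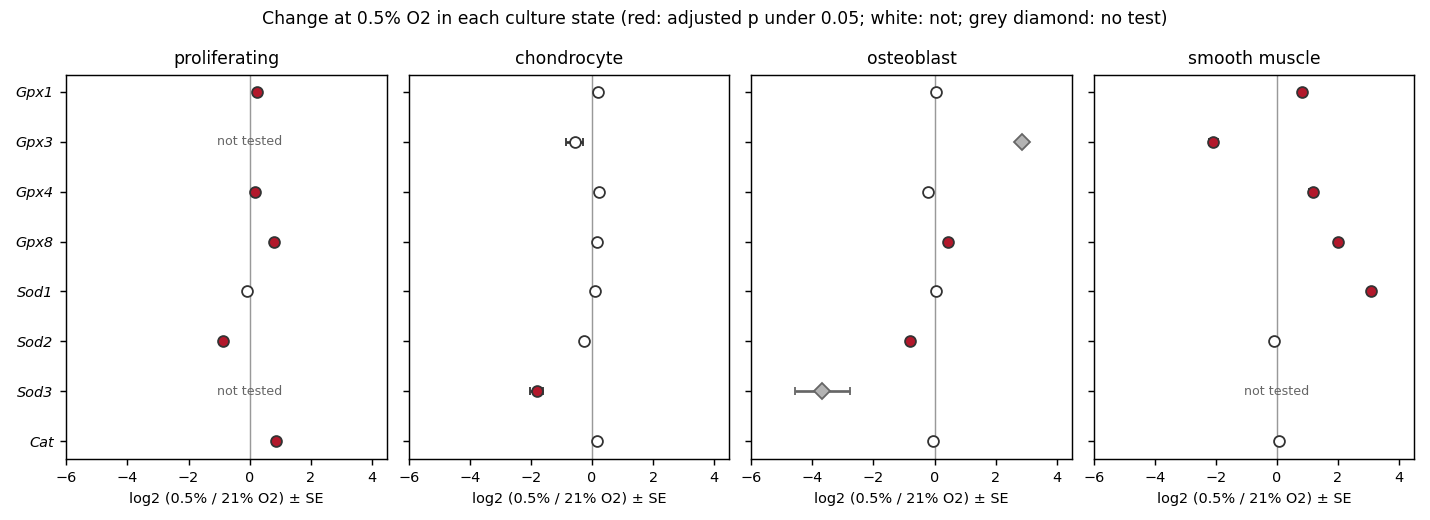
Log2 change of each member at 0.5% against 21% O2 in the 4 culture states; points are the fitted change and bars its SE, red where the adjusted p was under 0.05, white where not, and a grey diamond for Gpx3 and Sod3 in osteoblast cultures, which have no test. Sod2 lies at -0.87 in proliferating and -0.80 in osteoblast cultures, and Sod1 at 3.07 in smooth muscle cultures.

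Sod1, the cytosolic dismutase, was called with oxygen in 1 of the 4 culture states. Hypoxic smooth muscle libraries read 963, 1174 and 1048 CPM and normoxic ones 130, 128, 138 and 132 CPM, so the lowest hypoxic library was far above the highest normoxic one. The rise was 8.40-fold (log2 change 3.07, SE 0.08, adjusted p = 8.7e-14), and with scaling by library size alone it was 1.70 on the log2 scale, still called. In the same 3 libraries the summed level of 5 neural crest and proliferation markers was 773 to 834 CPM against 404 to 446 in normoxic smooth muscle libraries. Among them Twist1, a mesenchymal transcription factor, was 433 ± 40.1 CPM against 88.1 ± 10.9, and Sox10 was at 0. Tfap2a fell (log2 change -0.527), while Mki67 (0.335) and Top2a (0.565) rose. With scaling by library size alone these were -1.9, -1.03 and -0.806, and Twist1 was 0.992. The sum of 7 macrophage and blood markers was 33.6 to 37.4 CPM against 1.01 to 1.61, of which Cd68 made up 32.7 to 36.5 CPM. Adgre1, Tyrobp, Hba-a1 and Hbb-bs were at 0 there and Ptprc reached 0.278 CPM at most. The part of these markers in the Sod1 level was not tested. All libraries of the other groups lay between 100.1 and 178.8 CPM. The other oxygen changes were -0.09 in proliferating (adjusted p = 0.14, or -0.16 and 0.011 with scaling by library size alone), 0.08 in chondrocyte (adjusted p = 0.40) and 0.06 in osteoblast cultures (adjusted p = 0.56). Sod1 overlaps Scaf4 on the other strand, which took 37164 counts, and the strand setting of the counting is not given in the sources used here.

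Against proliferating cells at 21% O2, Sod1 fell by 0.64 in chondrocyte, 0.62 in osteoblast and 0.35 in smooth muscle cultures on the log2 scale (adjusted p = 2.9e-07, 7.6e-06 and 1.1e-05). Normoxic proliferating libraries, at 167 to 179 CPM, lay above all libraries of those 3 groups. At 0.5% O2 it fell in chondrocyte cultures by 0.49 (adjusted p = 6.8e-06), the osteoblast value was -0.47, and it rose in smooth muscle cultures by 2.87 (adjusted p = 2.1e-10). The 4 skeletal groups overlapped in turn, between 106 ± 5.13 and 114 ± 6.98 CPM. Ccs, the chaperone that loads copper into Sod1, fell in osteoblast cultures at 0.5% O2 from 31.8 ± 2.80 to 18.6 ± 2.46 CPM (log2 change -0.77, adjusted p = 0.0005), where Sod1 was not called. Its values were -0.01 in proliferating (adjusted p = 0.95), -0.03 in chondrocyte (adjusted p = 0.86) and 0.26 in smooth muscle cultures (adjusted p = 0.030), the last -1.11 with scaling by library size alone.

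Sod2, the mitochondrial dismutase, was lower at 0.5% O2 in proliferating and osteoblast cultures. Proliferating libraries read 66.2, 65.6, 69.4 and 56.2 CPM at 21% O2 and 35.0, 34.9 and 32.0 at 0.5% (log2 change -0.87, SE 0.07, adjusted p = 1.6e-07). Osteoblast libraries read 57.7, 57.0, 61.7 and 63.2 against 33.6, 35.2 and 34.4 CPM (-0.80, SE 0.08, adjusted p = 4.1e-05). Neither pair overlapped, and the osteoblast change without normoxic replicate 4 was -0.78. In chondrocyte cultures (48.4, 54.3, 57.2 and 54.3 against 39.7, 48.9 and 47.0 CPM) the ranges overlapped and the change of -0.25 missed the threshold (adjusted p = 0.063). It passed without normoxic chondrocyte replicate 1 (-0.29, adjusted p = 0.035) and with scaling by library size alone (-0.33, adjusted p = 0.020). In smooth muscle cultures the value was -0.09 (adjusted p = 0.40), though with scaling by library size alone it was -1.46 and was called. Normoxic smooth muscle cultures were already low, at 41.9 ± 2.40 CPM, and Sod2 fell there against proliferating cells by 0.57 on the log2 scale (adjusted p = 1.7e-06).

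The dismutases were then compared with each other within libraries. The exon union of Sod1 has 3970 bases against 641 for the principal transcript, and that of Sod2 10008 against 5861. By exon union the Sod1 shares and the Sod1 per Sod2 ratios would be lower in every group. Per length, Sod1 held 93.6 to 96.6% of the dismutase total in normoxic groups and 95.5 to 99.6% in hypoxic ones. Sod1 per Sod2 within a library was 24.9 ± 2.89 in normoxic and 42.6 ± 4.32 in hypoxic proliferating cells. The osteoblast pair had 16.6 ± 1.06 and 30.2 ± 1.89, the chondrocyte pair 18.2 ± 1.42 and 23.0 ± 2.75, and the smooth muscle pair 28.8 ± 0.67 and 257 ± 19.5. In each of the 4 pairs the lowest hypoxic library lay above the highest normoxic one.

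**Figure D4:**
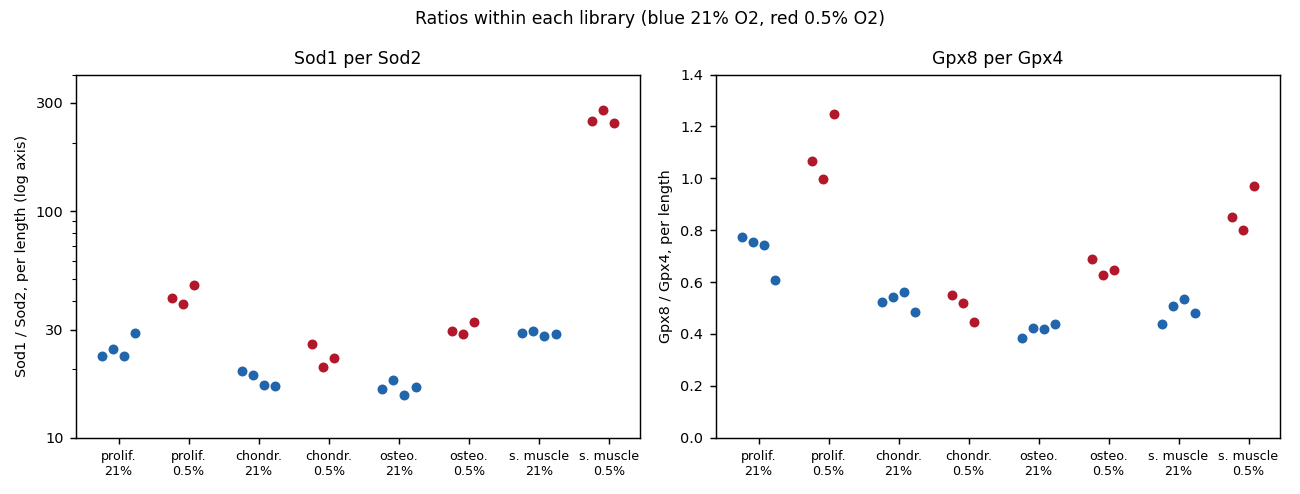
Ratios between members within each library, per length, by culture group; each point is 1 library, blue at 21% and red at 0.5% O2, and an axis marked as log is logarithmic. Sod1 per Sod2 lies higher at 0.5% O2 in all 4 culture states and reaches 243 to 280 in hypoxic smooth muscle libraries.

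Sod3, the extracellular dismutase, was read mainly in normoxic chondrocyte cultures. Libraries there read 9.91, 8.85, 8.71 and 5.42 CPM, and hypoxic chondrocyte libraries 2.38, 2.32 and 2.33. They did not overlap, and Sod3 fell by 1.82 on the log2 scale (SE 0.22, adjusted p = 0.00015), the only member to pass in the chondrocyte comparison. Normoxic osteoblast libraries read 1.43, 1.30, 1.76 and 3.78 CPM, 244 counts in all, and hypoxic ones 0.464, 0.0344 and 0 CPM, 13 counts in all. The groups did not overlap and the fitted log2 difference was -3.67 (SE 0.89). Sod3 passed the count filter there only through the normoxic libraries, so this is a description without a test. Its size rests on single libraries: the difference was -6.58 without hypoxic osteoblast replicate 1, -3.08 without replicate 3 and -3.21 without normoxic osteoblast replicate 4. The other 4 groups held between 1 and 38 counts of Sod3.

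Against proliferating cells Sod3 passed the count filter only through the cultures where it was high, so these differences are a description too. The fitted log2 differences at 21% O2 were 6.87 in chondrocyte and 4.87 in osteoblast cultures, over 12 counts in 4 normoxic proliferating libraries. Without normoxic osteoblast replicate 4 the osteoblast value was 4.36. At 0.5% O2 the chondrocyte value was 4.62 over 8 counts in 3 libraries. Chondrocyte cultures held more Sod3 than osteoblast cultures at 21% O2 (log2 difference 1.96, adjusted p = 0.00096). At 0.5% O2 the difference was 3.86, without a test, since the 13 counts of the osteoblast libraries kept 2 of them under the filter. Without hypoxic osteoblast replicate 1 the difference at 0.5% O2 was 6.75. The chondrocyte marker Col2a1 went with these levels, at 1039 to 5877 CPM in normoxic and 194 to 372 in hypoxic chondrocyte libraries. Acan, Col9a1, Comp, Matn3 and Hapln1 were lower at 0.5% O2 too (log2 changes from -7.855 to -1.588), but Sox9 was not (0.006, adjusted p = 0.99). The part of these markers in the Sod3 result was not tested.

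Cat was higher in hypoxic proliferating cells than in any other group. Those libraries read 119.5, 115 and 127 CPM, against 66.8, 64.6, 64.0 and 77.0 in normoxic proliferating ones (log2 change 0.88, SE 0.07, adjusted p = 1.1e-07). All other groups lay between 56.6 and 81.9 CPM. The other oxygen changes did not pass: 0.17 in chondrocyte (adjusted p = 0.12), -0.06 in osteoblast (adjusted p = 0.55) and 0.08 in smooth muscle cultures (adjusted p = 0.38). The smooth muscle value flipped to -1.29 with scaling by library size alone, and under that scaling Cat was called lower in osteoblast cultures too. At 0.5% O2, Cat fell against proliferating cells in chondrocyte (-0.61, adjusted p = 8.8e-07) and smooth muscle cultures (-0.50, adjusted p = 0.00016), and the osteoblast value was -1.05. At 21% O2 it rose in smooth muscle cultures by 0.24 (adjusted p = 0.0048).

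The counts of members called are read against the share of all tested genes called in the same direction, and cover only members that passed the count filter in both groups. In proliferating cells 4 members rose and 1 fell of 6, where 33.1% of all genes were called higher and 32.3% lower. With scaling by library size alone 2 members were called higher and 2 lower, against 29.3% and 36.2% of all genes. In chondrocyte cultures 0 rose and 1 fell of 8, against 10.4% and 11.8% of all genes (0 and 2 members with scaling by library size alone, against 7.68% and 16.4%). In osteoblast cultures, leaving out Gpx3, 1 rose and 1 fell of 6, against 27.0% and 27.3% (0 and 3 members with that scaling, against 20.9% and 35.8%). In smooth muscle cultures 4 rose and 1 fell of 7, against 35.4% and 40.2%. That balance turned with scaling by library size alone, where 2 members were higher (Gpx8 and Sod1) and 5 lower (Gpx1, Gpx3, Gpx4, Sod2 and Cat), against 13.4% and 72.6% of all genes. With so many genes called everywhere but in chondrocyte cultures, these counts do not set the members apart.

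In the comparisons of fates at 21% O2, 2 members rose and 2 fell of 6 in chondrocyte cultures against proliferating cells (37.7% and 37.2% of all genes), 2 rose and 2 fell of 6 in osteoblast cultures (40.9% and 37.8%), and 2 rose and 3 fell of 6 in smooth muscle cultures (40.8% and 38.9%). With scaling by library size alone the counts were 0 and 4 in chondrocyte cultures (27.2% and 51.2% of genes), 2 and 4 in osteoblast (36.4% and 42.3%) and 2 and 3 in smooth muscle cultures (43.5% and 36.2%). At 0.5% O2, 3 rose and 3 fell of 6 in chondrocyte cultures (34.9% and 34.6%) and 5 rose and 1 fell of 6 in smooth muscle cultures (33.8% and 36.2%). That scaling left 0 higher and 3 lower in chondrocyte cultures (23.4% and 50.2%). In smooth muscle cultures it left 1 higher (Sod1) and 4 lower (Gpx1, Gpx8, Sod2 and Cat), against 12.4% and 70.6%.

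Several small calls rested on single libraries. The Sod2 fall in normoxic chondrocyte cultures (-0.19, adjusted p = 0.032) was lost without normoxic proliferating replicate 1, 2 or 3 or normoxic chondrocyte replicate 1, 2 or 4. The Sod2 rise in hypoxic smooth muscle cultures (0.27, adjusted p = 0.029) was lost without any hypoxic proliferating library or hypoxic smooth muscle replicate 2 or 3. The Gpx1 rise in hypoxic chondrocyte cultures (0.20) was lost without hypoxic proliferating replicate 3 (adjusted p = 0.064). In the contrast that chose the set, 36.2% of all genes were called higher and 35.1% lower, and no member count is read from it. Chondrocyte against osteoblast cultures at 21% O2 gave 3 higher and 3 lower members of 8 (28.6% and 31.1% of genes), and 2 and 4 with scaling by library size alone (20.9% and 40.0%). Of these, the differences of Gpx4 (-0.24), Sod2 (-0.18) and Cat (0.19) were small and lost their calls without normoxic chondrocyte replicate 1, 2 or 3 or normoxic osteoblast replicate 1, among others for Sod2 and Cat. At 0.5% O2 Sod2 (0.40, adjusted p = 0.0041) and Cat (0.45, adjusted p = 0.00035) were higher in chondrocyte cultures and none was lower of 6 (28.6% and 29.0% of genes), against 2 higher and 2 lower with scaling by library size alone (23.5% and 34.0%).

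Whether a fate change differed with oxygen was tested by an interaction of oxygen and fate, the change from proliferating cells at 0.5% O2 minus that at 21%. The osteoblast interaction contains the contrast that chose the set, so its values are given without a test. Cat had negative interactions for chondrocyte (-0.70, adjusted p = 2.3e-05) and smooth muscle cultures (-0.76, adjusted p = 1.2e-06), and the osteoblast value was -0.89. All 3 share the same proliferating libraries, in which Cat was high at 0.5% O2, and its smooth muscle oxygen change was 0.08. Sod2 had positive interactions for chondrocyte (0.63, adjusted p = 0.00045) and smooth muscle cultures (0.82, adjusted p = 3.3e-06), the latter -0.52 with scaling by library size alone. The osteoblast value was 0.11. Gpx8 had a negative interaction for chondrocyte cultures (-0.63, adjusted p = 9.1e-05) and a positive one for smooth muscle cultures (1.23, adjusted p = 9.4e-09), the latter -0.11 with scaling by library size alone.

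Sod1 had the largest positive interaction among the members, 3.20 in smooth muscle cultures (SE 0.10, adjusted p = 2.0e-17). Gpx1 (0.59) and Gpx4 (1.03) were called there too, but were -0.75 and -0.31 with scaling by library size alone. The osteoblast value of Gpx4 was -0.34. Over all genes, 21.6% had a positive and 21.9% a negative call for chondrocyte, 28.9% and 25.3% for osteoblast, from which nothing is read, and 34.9% and 35.5% for smooth muscle cultures. The interactions of Gpx3 and Sod3 are built from comparisons that these genes passed only through 1 group, so they are given without a test. The proliferating libraries behind them held 17 and 31 counts of Gpx3 and 12 and 8 of Sod3, at 21% and 0.5% O2. For Gpx3 the value was -2.42 in chondrocyte and -3.93 in smooth muscle cultures, or -5.20 and -6.66 without normoxic proliferating replicate 2. For Sod3 it was -2.21 in chondrocyte cultures, or -1.42 without hypoxic proliferating replicate 3, and -4.04 in osteoblast cultures, reaching -6.98 when libraries were left out in turn.

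Glutathione peroxidases draw on glutathione, and lists of neighbouring pathways were followed in the same fits. List counts and medians cover the genes that passed the count filter in both groups. Of the genes of glutathione synthesis and recycling, 4 rose and 9 fell of 14 at 0.5% O2 in proliferating cells, 1 rose and 3 fell of 13 in chondrocyte, 4 rose and 4 fell of 13 in osteoblast and 10 rose and 2 fell of 14 in smooth muscle cultures. The list's median log2 change was -0.22, -0.05, -0.15 and 0.94 in that order, against 0.01, -0.01, -0.03 and -0.12 over all genes. For this and the following lists, the shares of all genes called higher and lower were 33.1% and 32.3% in proliferating, 10.4% and 11.8% in chondrocyte, 27.0% and 27.3% in osteoblast and 35.4% and 40.2% in smooth muscle cultures. With scaling by library size alone, 2 of the 14 genes were higher and 8 lower in smooth muscle cultures. That scaling called 13.4% of all genes higher and 72.6% lower there, which is also the background of the smooth muscle counts under it given for the lists below. Slc7a11, the cystine importer, had the largest rise of the list in osteoblast cultures, from 1.09 ± 0.12 to 13.8 ± 3.35 CPM (log2 change 3.65, adjusted p = 1.2e-06), where Gpx3 was highest. It had the largest rise in smooth muscle cultures too (3.76, adjusted p = 1.1e-07), where Gpx3 fell. Gsr, which regenerates reduced glutathione, fell in all 4 states, by 0.70, 0.46, 0.92 and 0.62 on the log2 scale. Chac1, which breaks glutathione down, rose most in proliferating cells (1.32) and Pgd, of the pentose phosphate pathway, in chondrocyte cultures (0.28), while Ggct fell most in proliferating cells (-1.24) and Glrx2, a mitochondrial glutaredoxin, in osteoblast cultures (-1.15).

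Peroxiredoxins remove peroxide with electrons from thioredoxin. Of 13 genes of that system 5 rose and 7 fell in proliferating, 3 and 1 in chondrocyte, 5 and 5 in osteoblast and 8 and 4 in smooth muscle cultures, with median changes of -0.24, 0.05, 0.15 and 1.26. In smooth muscle cultures 2 were higher and 6 lower with scaling by library size alone. The largest rises were those of Prdx5 in proliferating (1.36) and smooth muscle cultures (2.12), Prdx4 in chondrocyte (0.55) and Prdx6 in osteoblast cultures (0.94). The largest falls were those of Txn2, the mitochondrial thioredoxin, in proliferating cells (-0.95), Srxn1, which repairs oxidised peroxiredoxins, in chondrocyte cultures (-0.45), and Txnip, the thioredoxin inhibitor, in osteoblast (-2.12) and smooth muscle cultures (-1.78). Prdx4, which works in the endoplasmic reticulum as Gpx7 and Gpx8 do, rose in all 4 states, except that its smooth muscle value was -0.11 (adjusted p = 0.22) with scaling by library size alone.

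Gpx1, Gpx3 and Gpx4 need selenium, which cells insert with a dedicated set of factors. Of 8 genes of selenoprotein synthesis, 0 rose and 5 fell in proliferating cells, 0 and 2 in chondrocyte, 1 and 3 in osteoblast and 1 and 3 in smooth muscle cultures, with median changes of -0.49, -0.15, -0.04 and -0.37. Sephs2, the selenophosphate synthetase, fell most in proliferating cells, from 56.3 ± 2.49 to 14.6 ± 1.81 CPM (adjusted p = 2.8e-10). Eefsec, the elongation factor for selenocysteine, fell most in chondrocyte cultures (-0.48), Sephs1 in osteoblast (-0.87) and Sepsecs, which makes selenocysteine on its tRNA, in smooth muscle cultures (-2.69). The only rises were Sepsecs in osteoblast (0.31) and Trnau1ap in smooth muscle cultures (0.92), the latter -0.45 with scaling by library size alone, where all 8 were lower. Eefsec and Sephs1 fell in all 4 states.

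Of 14 other selenoproteins, 5 rose and 3 fell of 11 in proliferating cells, 1 and 0 of 11 in chondrocyte, 3 and 4 of 12 in osteoblast and 5 and 5 of 11 in smooth muscle cultures, with median changes of 0.14, -0.02, -0.27 and -0.03. Selenom, of the endoplasmic reticulum, rose most in proliferating cells (1.76), Selenoi in chondrocyte (0.25) and Selenoh in osteoblast (0.67) and smooth muscle cultures (1.92). The largest falls were Selenoi in proliferating cells (-0.52), Selenos in osteoblast cultures (-1.37) and Selenon in smooth muscle cultures (-1.26). Selenop, the selenium carrier, was 27.3 ± 3.30 CPM in normoxic and 0.154 ± 0.27 CPM in hypoxic smooth muscle cultures, a description, since it passed the count filter through the normoxic libraries only. With scaling by library size alone 1 of the 11 was higher and 8 were lower in smooth muscle cultures.

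Gpx8 shares its compartment with the oxidative folding machinery, of which 7 genes were tested. The oxidases Ero1a and Ero1b were on the list but have no value in these fits, so the counts and medians leave them out. In proliferating cells 5 rose and 0 fell, in chondrocyte cultures 3 and 0, in osteoblast cultures 2 and 2, and in smooth muscle cultures 4 and 3, with median changes of 0.36, 0.11, -0.09 and 0.25. P4hb, the protein disulfide isomerase, rose most in proliferating (1.42) and smooth muscle cultures (2.64). Its value in osteoblast cultures, where Gpx8 rose, was 0.12 (adjusted p = 0.61). Prdx4 had the largest rise in chondrocyte and Qsox1, a sulfhydryl oxidase, in osteoblast cultures (1.16), and Vkorc1 (-0.56) and Pdia4 (-2.17) fell most in osteoblast and smooth muscle cultures. Scaling by library size alone left 2 higher and 4 lower in smooth muscle cultures.

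The list of sources of superoxide or peroxide held oxidases and also the oxidase subunits Cyba and Noxo1, both among the rises in proliferating cells. In proliferating cells 4 rose and 1 fell of 7. The counts were 2 and 2 in chondrocyte, 1 and 2 in osteoblast and 2 and 2 in smooth muscle cultures, each of 7. Median changes were 0.22, -0.17, -0.35 and 0.11 from proliferating to smooth muscle cultures. Lox, a collagen crosslinking oxidase that releases peroxide, rose most in proliferating (3.48) and chondrocyte cultures (0.55). Maoa, the mitochondrial monoamine oxidase, fell most in proliferating (-0.81) and smooth muscle cultures (-2.11), and Nox4, which makes hydrogen peroxide, in chondrocyte (-1.10) and osteoblast cultures (-1.72). Xdh, xanthine oxidoreductase, rose most in osteoblast (2.01) and smooth muscle cultures (3.14). Scaling by library size alone left 1 higher and 6 lower in smooth muscle cultures.

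Catalase works in peroxisomes. Of 19 genes of peroxisome assembly and oxidation 8 rose and 3 fell in proliferating cells, where 33.1% of all genes were called higher and 32.3% lower. The counts were 2 and 1 in chondrocyte, 6 and 2 in osteoblast and 8 and 8 in smooth muscle cultures, also of 19, with median changes of 0.11, 0.03, 0.13 and -0.09 from proliferating to smooth muscle cultures. The largest rises were Pex26 (1.23), an import factor, in proliferating cells, Acox3 (0.89), an oxidase that makes peroxide, in chondrocyte, Pex13 (1.14), part of the import channel, in osteoblast and Pex6 (1.30) in smooth muscle cultures. The largest falls were Hsd17b4 in proliferating cells (-0.48), Pex19 in chondrocyte (-0.31) and osteoblast cultures (-0.46), and Pex11a in smooth muscle cultures (-2.33). In smooth muscle cultures scaling by library size alone left 0 higher and 17 lower, with Pex6 at -0.07.

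The genes most like each member were taken by the highest Pearson r of log2(CPM + 0.5) over the 28 libraries, among 12510 genes. Points share libraries and groups, so these are descriptions. For Gpx3 the 5 nearest were Sidt2 (r = 0.98), Myo1d (0.98), Smarcd3 (0.97), Lims2 (0.97) and Nbl1 (0.97). By Spearman's rho the first was Wls (0.98), and of the first 5 only Sidt2 was shared. Sidt2 itself ranged from 48.3 CPM in normoxic proliferating to 196 in hypoxic osteoblast cultures. For Gpx4 the nearest gene by either measure was another selenoprotein, Selenok (r = 0.92, rho = 0.94). For Sod1 it was Atp5c1, a subunit of the mitochondrial ATP synthase (r = 0.99, rho = 0.86), with 997 ± 25.9 CPM in hypoxic smooth muscle cultures against group means of 114 to 192 elsewhere. Without those 3 libraries r was 0.89 and rho 0.80 over 25 libraries. The nearest were Morf4l1-ps1 for Gpx1 (0.92), Fam57b for Gpx8 (0.96), Gtpbp1 for Sod2 (0.93), Alx4 for Sod3 (0.96) and Pcyt1b for Cat (0.91).

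The promoters of the members were read from RefSeq (GRCm38.p6), 250 bases before to 50 after each start, for 8 members with 11 windows. They were searched on both strands for the hypoxia response cores ACGTG and GCGTG, the antioxidant response core TGACNNNGC and the glucocorticoid response core ACANNNTGT, since 0.5% O2 and dexamethasone were part of the treatments. Over 32851 promoters, 19.6% held ACGTG, 32.4% GCGTG, 12.4% TGACNNNGC and 6.8% ACANNNTGT. Among members with a match, Sod1 and Gpx8 had the largest oxygen changes under TMM scaling, both in smooth muscle cultures. With scaling by library size alone Sod2, which also had matches, changed more there than Gpx8. Stretches of the Gpx8 and Sod1 promoters are therefore shown with matches in capitals, at chr13:113046529-113046588 (minus strand, 200 to 141 bases before the start) and chr16:90220582-90220721 (plus strand, 180 to 41 bases before the start):
Gpx8: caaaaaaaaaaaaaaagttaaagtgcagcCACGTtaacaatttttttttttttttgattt
Sod1: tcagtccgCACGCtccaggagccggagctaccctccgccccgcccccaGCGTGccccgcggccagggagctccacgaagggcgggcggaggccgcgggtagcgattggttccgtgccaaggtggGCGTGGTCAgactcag
The Gpx8 window held 1 ACGTG, on the other strand, with its first base at -171. The Sod1 window held GCGTG at -172, -132 and -56, the last overlapping a TGACNNNGC on the other strand. Gpx1 held ACGTG at -183 and GCGTG at -147, Sod2 held GCGTG at -41 and -25, and 3 of the 4 Gpx4 windows held GCGTG. The Gpx3, Gpx7 and Cat windows held none of the 4 motifs. A match describes letters in a window and does not show that a factor binds there.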

How the data were processed

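Poly(A) RNA of O9-1 cells was sequenced as 28 libraries from a stranded library kit, 400 ng RNA each. Per the submitters' processing notes, HISAT2 2.0.5, StringTie 1.3.3b and featureCounts 1.5.0-p3 were used with mm10. The authors deposited raw read counts per gene, the values used here, and 10 comparison tables with log2 fold changes. The strand setting and annotation of the counting are not given in the sources used here. Another 70 columns of per-library normalised values were not used. Against the authors' deposited table, 74 member log2 changes had the same sign as those computed here, with a median difference of 0.011 and a largest of 0.382 (Gpx3, normoxic chondrocyte against proliferating).

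Each pair of groups was fitted to its own libraries with edgeR 4.0.16 (R 4.3.3): filterByExpr, TMM scaling, robust quasi-likelihood test, Benjamini-Hochberg adjustment over all genes tested, and calls at an adjusted p below 0.05. The SE is the log2 change divided by the square root of F. Interactions used 4 groups. A gene passed the filter in both groups where each held as many libraries at its level as the filter needs. The fits were tested on simulated data. Samples were grouped by their labels. Same-numbered libraries did not deviate together (correlations -0.182 to 0.074 in 12 comparisons), so numbers were not used as pairs. Alternatives were other scalings, filters and tools (DESeq2 1.42.0, limma 3.58.1), 1 fit of all libraries and leaving out each library. Lengths are those of the APPRIS principal transcript in GENCODE M21. Intervals and floors of 3 counts cover counting error only. Named genes were all 9 members, the 5 genes most like Gpx3 and the 1 most like each other tested member, and, in each pathway list and culture, the gene that rose most and the gene that fell most at 0.5% O2 among those called; the limit to genes past the filter in both groups was added after values were seen. Gsr, Prdx4, Eefsec, Sephs1 and P4hb in further cultures, Ccs, Selenop and the marker genes were named after their values were seen. The members and lists were chosen with earlier results of these data known.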

Additional observations from a re-analysis of the deposited data

Results flagged for a closer look

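In 34 groups of 4 libraries with a member's level, 3 had a library far from the others, where chance gives about 1 in 20. Normoxic osteoblast replicate 4 read 188.2 CPM of Gpx1 (others 172.1 to 174.3) and 118.2 CPM of Gpx8 (others 91.29 to 93.04), and the same library stood apart in Sp7. Normoxic proliferating replicate 2, the deepest library, read 0.2161 CPM of Gpx3 (others 0 to 0.035).

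Differences between culture states came from the interactions of oxygen and fate. For chondrocyte cultures they passed for Gpx8 (-0.632), Sod2 (0.627) and Cat (-0.698). For smooth muscle cultures they passed for Gpx1 (0.588), Gpx4 (1.027), Gpx8 (1.226), Sod1 (3.198), Sod2 (0.815) and Cat (-0.759). These use the 3 hypoxic smooth muscle libraries that stood apart. For Sod2 and Cat the smooth muscle oxygen change itself was -0.09 and 0.08, or -1.46 and -1.29 with scaling by library size alone, and the Sod2 interaction was then -0.52.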

How the results depend on the processing

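With scaling by library size alone, 16 member values were counted as changing sign. The count leaves out some values near 0, such as those of Gpx1 and Sod1 in hypoxic against normoxic osteoblast cultures. The values counted include Gpx1 (-0.568), Gpx4 (-0.212) and Cat (-1.291) in hypoxic against normoxic smooth muscle cultures. Gpx1 (-0.064), Gpx4 (-0.018) and Cat (-0.23) did so in normoxic chondrocyte against proliferating cultures, Gpx1 (-0.129) in hypoxic chondrocyte and Sod2 (-0.215) in hypoxic osteoblast against proliferating cultures. The same held for Gpx1 (-0.384), Gpx4 (-0.197), Gpx8 (-0.546) and Sod2 (-1.007) in hypoxic smooth muscle against proliferating cultures, and for Gpx1 (-0.752), Gpx4 (-0.313), Gpx8 (-0.114) and Sod2 (-0.522) in the smooth muscle interaction.

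Counts of members called cover those past the count filter in both groups, and each is given with the share of all genes called under the same setting. In proliferating cells at 0.5% O2 they numbered 5 (65.4% of genes), 3 in the fit of all libraries (49.0%), and 3 to 5 when libraries were left out in turn (59.5 to 70.7%). In chondrocyte cultures 1 was called (22.2%), against 2 with library size scaling (24.1%), 3 without a filter (13.7%), 2 in the fit of all libraries (18.4%) and 1 to 3 leaving libraries out (14.4 to 23.8%), where genes called went from 2091 to 3359. Library size scaling gave 3 (73.6%) rather than 6 (69.5%) in hypoxic chondrocyte against proliferating cultures and 4 (57.5%) rather than 2 (57.6%) in hypoxic chondrocyte against osteoblast cultures. Leaving libraries out gave 3 to 6 (52.7 to 66.9%), where all libraries gave 6 (59.7%), in normoxic chondrocyte against osteoblast cultures. The cause of these moves was not tested. The fit with a replicate block called 2 members in chondrocyte cultures at 0.5% O2 (19.7%) and moved no other member count by over 1.5 times. Per exon union, the Gpx3 share in hypoxic osteoblast cultures was 66.7% and the Sod1 share in hypoxic smooth muscle cultures 98.6%, an alternative added after seeing the data. The other shares and the ratios also depend on the length used and are not given per exon union. Depth limits Gpx7 and Sod3 most.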
